A study of Mus musculus with 2 samples.

Results

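Regions of open chromatin whose strongest point lies more than 1 kb and at most 5 kb from the nearest start of a protein-coding transcript were examined in mouse common myeloid progenitors. Of 65789 regions on the autosomes, 7061 met the rule, 3385 upstream and 3676 downstream of that start. The strongest point of a region is called its summit, and starts were those of protein-coding transcripts in GENCODE M21. Another 243 regions in the same distance range were left out because the start of a long noncoding RNA lay within 1 kb. The regions compared with them were 14309 promoter regions, with the summit within 1 kb of a start, and 42966 regions beyond 5 kb.

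The study consisted of 2 ATAC-seq libraries, labelled biological replicates 1 and 2, each from 50000 common myeloid progenitors of male C57BL/6J mice aged 5 to 6 weeks. ATAC-seq cuts and tags accessible DNA with a transposase, so that reads pile up where chromatin is open. There was no second condition, both libraries carry the same donor label, and nothing says that they came from separate animals. The deposited lists hold called regions with a signal value and no read counts, so the depth is unknown.

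A common myeloid progenitor is the bone marrow cell from which erythrocytes, megakaryocytes, granulocytes and monocytes descend. The sequence just outside a promoter holds short-range enhancers, alternative promoters and binding sites of the insulator protein CTCF, and downstream of the start it usually falls in the first intron. Haematopoietic factors such as PU.1, RUNX1, GATA2 and C/EBPα bind such elements as well as distant ones. Of 10 marker genes of the labelled cell type, 9 had a promoter region (Kit, Cd34, Flt3, Runx1, Spi1, Cebpa, Mpo, Csf1r and Fcgr3), and the remaining one, Gata2, had none under this rule. Of the markers of B cells (2 genes), T cells (2 genes), mature neutrophils (3 genes) and mature erythroid cells (1 autosomal gene), none had a promoter region, while 1 of the 2 stromal markers, Col1a1, had one. Longer lists of these lineages did hold promoter regions, at 5 of 12 B cell genes, 6 of 12 T and NK cell genes, 1 of 12 mature neutrophil genes and 13 of 14 erythroid genes.

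The sequences around the strongest summits show what these regions hold. Each run is GRCm38 (mm10) sequence from 50 bp before to 50 bp after the summit, read along the strand of the nearest gene, with matches to any of 20 motifs, listed further on, in capitals. The first 4 are the strongest regions found in both replicates' own lists in each combination of side and promoter status. Those of Olfr94 (chr17:37203738-37203838, minus strand, 2794 bp upstream) and Miga1 (chr3:152315776-152315876, minus strand, 1889 bp downstream) belong to genes with a promoter region. Those of Clec4g (chr8:3718690-3718790, minus strand, 1187 bp upstream) and Gm13691 (chr2:83994052-83994152, plus strand, 3549 bp downstream) belong to genes without one.
Olfr94: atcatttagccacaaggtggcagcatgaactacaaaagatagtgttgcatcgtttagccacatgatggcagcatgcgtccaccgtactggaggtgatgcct
Miga1: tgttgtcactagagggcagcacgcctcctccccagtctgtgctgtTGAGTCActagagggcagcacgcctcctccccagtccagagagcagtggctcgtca
Clec4g: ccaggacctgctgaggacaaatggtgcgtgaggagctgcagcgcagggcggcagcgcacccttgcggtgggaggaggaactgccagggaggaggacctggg
Gm13691: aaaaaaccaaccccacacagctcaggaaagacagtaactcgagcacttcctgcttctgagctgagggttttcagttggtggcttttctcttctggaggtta
The capitals at Miga1, which encodes a protein of mitochondrial fusion, match the AP-1 motif, and the other 3 windows hold no match. Only exact matches to a whole motif were marked here and below, so near matches stay in lower case.

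The next 8 sequences are from genes of the 12 lists described below, 1 per gene, taken by signal among regions in both replicates' lists whose window avoided noncoding exon parts. They lie at chr17:40806793-40806893 (Rhag, plus strand), chr3:30234148-30234248 (Mecom, minus), chr6:117166957-117167057 (Cxcl12, plus), chr16:16865397-16865497 (Igll1, minus), chr4:129556568-129556668 (Lck, minus), chr12:107998876-107998976 (Bcl11b, minus), chr11:102893074-102893174 (Gfap, minus) and chr8:104099465-104099565 (Cdh5, plus).
Rhag: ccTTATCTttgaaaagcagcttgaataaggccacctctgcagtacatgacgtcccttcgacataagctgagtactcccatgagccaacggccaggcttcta
Mecom: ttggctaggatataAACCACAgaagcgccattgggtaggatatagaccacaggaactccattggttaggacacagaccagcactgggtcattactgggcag
Cxcl12: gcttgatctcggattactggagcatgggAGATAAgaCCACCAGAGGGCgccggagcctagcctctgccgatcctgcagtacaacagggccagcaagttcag
Igll1: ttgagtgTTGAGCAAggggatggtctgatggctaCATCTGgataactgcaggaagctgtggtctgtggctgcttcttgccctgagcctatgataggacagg
Lck: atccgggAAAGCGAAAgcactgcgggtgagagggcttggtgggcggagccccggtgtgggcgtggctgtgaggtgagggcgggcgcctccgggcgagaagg
Bcl11b: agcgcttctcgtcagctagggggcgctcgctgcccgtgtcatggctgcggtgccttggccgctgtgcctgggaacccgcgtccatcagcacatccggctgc
Gfap: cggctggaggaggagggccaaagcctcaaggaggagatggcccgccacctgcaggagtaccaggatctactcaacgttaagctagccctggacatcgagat
Cdh5: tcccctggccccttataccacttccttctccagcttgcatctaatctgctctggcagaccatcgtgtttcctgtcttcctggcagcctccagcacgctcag
The capitals mark a GATA match at Rhag, an erythroid membrane protein gene, and a RUNX match at Mecom, which encodes a stem cell transcription factor. At Cxcl12, a stromal chemokine gene, they mark adjacent GATA and CTCF matches, the GATA match being nearer to the 5′ end. At Igll1, a surrogate light chain gene of pre-B cells, they mark a C/EBP and an E-box match, and at Lck, a T cell kinase gene, an IRF match. The windows of Bcl11b, Gfap and Cdh5 hold no match.

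Upstream and downstream sequence held the regions at nearly equal density. The rule covered 91.4 Mb upstream and 99.6 Mb downstream, which gave 37.1 regions per Mb upstream (95% Poisson interval 35.8 to 38.3) and 36.9 downstream (35.7 to 38.1). The upstream share was 47.94% of the regions against 47.85% of the territory (exact binomial test, two-sided p = 0.877). With only the 5′ end of each gene as a start, the downstream side was denser, with an upstream to downstream ratio of 0.835 (exact binomial p = 8.44e-12). Among regions in the upper 50% by signal the ratio was 1.12 in favour of upstream (exact binomial p = 0.0126). Intervals here and below cover counting error only, and neighbouring regions are not independent replicates.

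Density depended on the distance from the start and on whether the gene had a promoter region. At genes with a promoter region, downstream density was 62.7 per Mb between 1 and 1.5 kb, 49.99 between 1.5 and 2 kb and 29.0 between 3 and 3.5 kb, and it stood at 41.0 between 5 and 10 kb. Upstream, it was 54.3 per Mb between 1 and 1.5 kb, 39.4 from 2 to 5 kb and 46.9 between 5 and 10 kb. The stretch from 2 to 5 kb was therefore sparser than both its neighbours on each side: downstream it held 35.5 regions per Mb, 0.866 times the density at 5 to 10 kb (exact binomial test, adjusted p = 1.09e-05), and upstream 0.841 times (exact, adjusted p = 2.16e-07). At genes without a promoter region the same stretch was denser than the one beyond it, 1.16 times downstream (27.5 against 23.8 per Mb; exact, adjusted p = 0.00764) and 1.13 times upstream (27.5 against 24.4; exact, adjusted p = 0.0314).

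**Figure D1:**
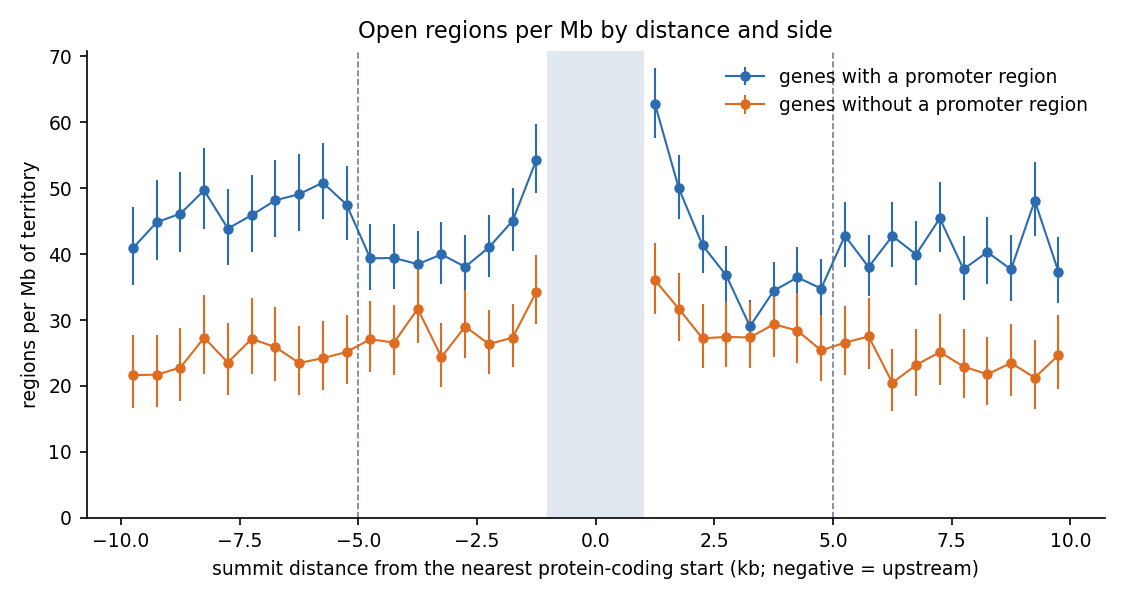
Regions per Mb of territory (vertical axis) in 500 bp bins of summit distance from the nearest start (horizontal axis, kb, negative upstream), for genes with (blue) and without (orange) a promoter region; bars are exact 95% Poisson intervals, dashed lines mark 5 kb and the grey band is the promoter. Blue points fall from 62.7 per Mb at 1 to 1.5 kb to 29.0 at 3 to 3.5 kb downstream and lie higher again beyond 5 kb.

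The sides differed at genes with a promoter region, in opposite directions near and far. Between 1 and 2 kb upstream density was 0.881 times the downstream density (49.7 against 56.4 per Mb; exact binomial, adjusted p = 0.0150). Between 2 and 5 kb it was 1.11 times (39.4 against 35.5; exact, adjusted p = 0.0066). From 5 to 10 kb it was 1.14 times (46.9 against 41.0; exact, adjusted p = 5.68e-06). At genes without a promoter region the ratios at the same distances were 0.911, 0.999 and 1.03, with exact adjusted p-values of 0.320, 1 and 0.676. The 18 density comparisons were chosen after the distances had been seen and were adjusted together.

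Values on either side of the distance limits were as follows. In the last 100 bp before 1 kb, 333 promoter regions had a median signal of 5.92 and 19.2% were CpG-rich, and in the first 100 bp past it 275 regions had 6.11 and 16.4%. In the last 100 bp before 5 kb, 139 regions had a median signal of 6.997 and 4.32% were CpG-rich, and in the first 100 bp past it 157 had 7.46 and 7.64%. CpG-rich means a GC content of at least 50% and a ratio of observed to expected CpG of at least 0.6 in a window around the summit. The signal is the authors' own value for each region, and its scale is not given in the sources used here.

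Of 20722 autosomal protein-coding genes, 5318 (25.7%) had a region 1 to 5 kb out, 2897 (14.0%) upstream and 3165 (15.3%) downstream. Genes with a promoter region had one more often: 3712 of 12612 (29.4%, Clopper-Pearson interval 28.6 to 30.2) against 1606 of 8110 genes without (19.8%, 18.9 to 20.7). The odds were 1.69 times as high (1.58 to 1.81), with p = 2.70e-55 by a two-sided Fisher's exact test over genes. The odds ratio was 1.64 upstream (16.2% against 10.5%; exact p = 2.26e-31) and 1.65 downstream (17.7% against 11.5%; exact p = 6.20e-34). Genes with a promoter region averaged 2.90 annotated starts and the others 1.91, so more sequence was in reach. Per Mb of that sequence the regions remained denser at genes with a promoter region, 1.49 times upstream and 1.41 times downstream (exact binomial, adjusted p = 1.06e-25 and 1.26e-20), and among genes with 1 start the odds ratio was 1.40 (23.5% of 3688 against 18.03% of 3960; exact p = 4.72e-09).

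Strong and weak regions went opposite ways. A region at or below the median signal of all autosomal regions stood at 24.6% of genes with a promoter region and 11.6% of genes without (odds ratio 2.49, 2.30 to 2.70; Fisher's exact p = 2.02e-124). A region above that median stood at 7.26% of genes with a promoter region and 10.1% of genes without (odds ratio 0.698, 0.633 to 0.771; exact p = 1.38e-12). Among genes with 1 start, the strong regions stood at 2.85% against 8.81% of genes (odds ratio 0.303; exact p = 1.01e-29). When promoter regions and outer regions were both limited to the upper 50% by signal, the odds ratio for any region was 0.521 (exact p = 8.03e-35).

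**Figure D2:**
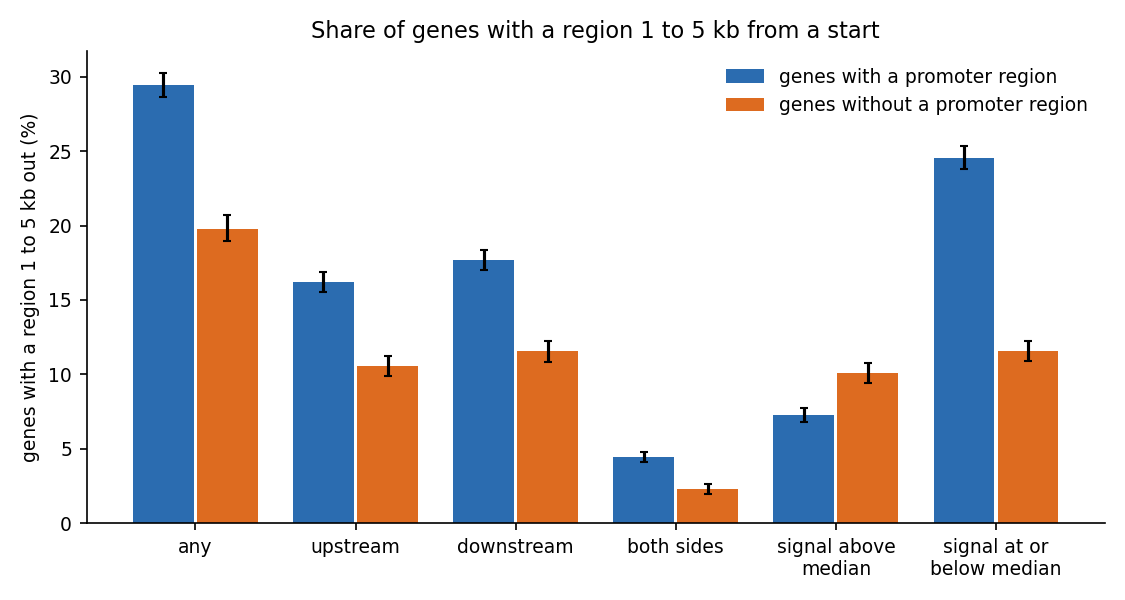
Percent of autosomal protein-coding genes (vertical axis) with at least 1 region 1 to 5 kb from a start, by side and signal (horizontal axis), for 12612 genes with (blue) and 8110 without (orange) a promoter region; error bars are Clopper-Pearson 95% intervals. Blue bars are taller except for regions above the median signal, 7.26% against 10.1%.

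The regions were weaker and narrower at genes with a promoter region, which could lie at another start than the one nearest the region. The median signal was 5.98 over 5037 regions at genes with a promoter region and 7.79 over 2024 at genes without, and 19.95% against 43.0% of them lay above the median of all regions (odds ratio 0.330, 0.295 to 0.369; Fisher's exact test, adjusted p = 1.09e-82). Median widths were 400 and 449 bp, and 7.11% against 11.6% were CpG-rich (exact adjusted p = 5.46e-09). The gap in signal was smaller farther out: between 5 and 10 kb the medians were 8.08 and 8.31. Genes with a region 1 to 5 kb out also had weaker promoter regions, with a median of 8.71 over 3712 genes against 11.2 over the other 8900, and 31.0% against 57.9% lay above the median of such genes (odds ratio 0.327, 0.302 to 0.355; exact p = 1.61e-169). The regions at genes with a promoter region had a median 0.726 times the signal of their own gene's strongest promoter region. Of them, 26.03% exceeded it (27.4% upstream against 24.8% downstream, Fisher's exact p = 0.0339).

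Of the 5037 regions at genes with a promoter region, 2404 lay upstream. Of the 10 that most exceeded their gene's promoter region, 8 lay upstream, and all 10 were 3.12 to 3.68 times as strong. Mpeg1, which encodes the macrophage pore protein perforin-2, had one 3178 bp upstream with a signal of 12.1 (11.2 and 10.8 in the lists of replicates 1 and 2) and a PU.1 match, against 3.80 at its promoter. Mvp, encoding the major vault protein, had one 2952 bp downstream with 13.3 (11.98 and 13.01) and an NF-E2 match, against 3.79. Grk2, a kinase that desensitises G protein-coupled receptors, had one 4050 bp upstream with 10.3 (9.51 and 9.90) and a RUNX match, against 3.05. The other 7 belonged to Olfr94, Rnf180, Tspoap1, Sgca, Cldn11, Gramd1a and Ank3. All 10 were present in both replicates' own lists.

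Among the 10 strongest regions of each side, signals ran from 17.6 to 21.3 upstream and from 17.4 to 20.8 downstream, against a median of 6.43 over all 7061. Of these 20, 5 upstream and 5 downstream belonged to genes without a promoter region, as did 2024 of all 7061. Olfr67, an olfactory receptor gene near the beta-globin cluster on chromosome 7, had a region of 19.6 at 1434 bp upstream (17.1 and 17.6 in the replicates) with RUNX and GATA matches. Kif14, a kinesin gene of cytokinesis, had one of 18.8 at 1656 bp upstream (17.6 and 17.2) with an ETS match. Ccdc73 had one of 19.6 at 1771 bp downstream in its first intron (16.4 and 17.0) with an IRF match. Exoc1, an exocyst subunit gene that does have a promoter region (14.6), held one of 19.5 at 4141 bp downstream (15.95 and 17.5) with NF-E2 and E-box matches. The nearest start is a position only: whether a region acts on that gene was not measured.

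Some genes with several annotated starts were surrounded by many regions. Of the 5318 genes, 4029 had 1 region, 993 had 2 and 32 had at least 5. Pde4d, a cAMP phosphodiesterase gene with 12 starts, had 13, of which 8 were upstream, with signals from 5.48 to 10.6; 8 of the 13 were in both replicates' lists. Csk, which encodes the kinase that restrains SRC family kinases, had 8 and no promoter region, with signals from 4.23 to 7.11; 5 of the 8 were in both lists. Foxp1, a forkhead repressor gene with 14 starts, had 8 with signals from 4.08 to 7.40, and 2 of them were in both lists. Tnfaip8 had 8, and Ablim1, Gse1, Lhfpl2, Ndst1 and Ptpre had 7 each. The 3 strongest of Lhfpl2 (11.04, 11.8 and 13.3) stood well above its promoter region (5.61), and the next, at 5.815, barely above it.

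Upstream and downstream regions occurred together at genes, counted over all starts of a gene. Of 2897 genes with an upstream region 25.7% also had a downstream one, against 13.6% of 17825 genes without an upstream region (odds ratio 2.20, 2.00 to 2.41; Fisher's exact p = 3.95e-56). Among genes with 1 start the shares were 19.97% of 791 and 11.5% of 6857 (odds ratio 1.92, 1.59 to 2.32; exact p = 1.21e-10). In all 744 genes had both, at the same start or at different ones, and 158 of them had 1 start.

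Upstream regions lay mostly between genes and downstream regions mostly in the first intron. The make-up of the territory by place was not measured, so these shares are descriptive and have no background beside them. Of the upstream regions 63.4% were intergenic and 32.7% in an intron of a protein-coding transcript. Of the downstream regions 82.7% were intronic and 6.01% in coding exons, and by the transcripts of the nearest start 58.2% fell in the first intron and 22.4% in a later one. The 221 downstream regions in coding exons were CpG-rich in 47.5% of cases, against 6.32% of the 3039 in introns. A promoter region's edge was within 500 bp of 285 regions (4.04%).

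Sides differed slightly in strength, width and CpG content. The upstream regions were above the median signal in 28.1% and the downstream ones in 25.1% of cases (odds ratio 1.16, 1.05 to 1.29; Fisher's exact test, adjusted p = 0.00927). They were above the median width in 32.1% against 36.2% (0.834, 0.756 to 0.921; exact adjusted p = 0.00132), and CpG-rich in 7.59% against 9.11% (0.819, 0.692 to 0.971; exact adjusted p = 0.0303). The shares at genes with a promoter region, 71.0% and 71.6%, did not differ beyond counting error (exact adjusted p = 0.580). Between 1 and 2 kb, 13.6% of the downstream and 10.1% of the upstream regions were CpG-rich, and between 4 and 5 kb 5.50% and 5.48%. With the inner limit at 2 kb none of the 4 features differed between sides.

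Set against the other classes, the regions 1 to 5 kb out were the weakest. Their median signal was 6.43, against 9.28 at promoters and 8.43 beyond 5 kb, and 26.6% lay above the median of all regions, against 58.5% and 50.7% (odds ratios 0.256, 0.241 to 0.273, and 0.351, 0.332 to 0.372). Median widths were 415, 768 and 460 bp. CpG content was intermediate, with 8.38% CpG-rich against 65.7% at promoters (odds ratio 0.0479, 0.0437 to 0.0524) and 3.32% beyond 5 kb (2.66, 2.41 to 2.94; Fisher's exact test, adjusted p = 2.27e-72).

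The replicates' own lists held fewer of these regions than of the others. Replicate 1's list held 59.7% of them (background over all regions 67.9%) and replicate 2's 45.97% (background 54.9%); 41.3% were in both and 35.6% in neither. Promoter regions were found in 84.0% and 75.02%, and regions beyond 5 kb in 63.7% and 49.6% (odds ratios against the latter 0.843 and 0.866; Fisher's exact test, adjusted p = 1.02e-10 and 2.30e-08). Upstream regions were found in 61.3% against 58.2% of downstream ones in replicate 1 (odds ratio 1.14, 1.03 to 1.25; exact p = 0.00937) and in 47.0% against 45.0% in replicate 2 (1.08, 0.984 to 1.19; exact p = 0.109). The difference in replicate 1 passed 0.05 neither with the inner limit at 2 kb (odds ratio 1.12, exact p = 0.0638) nor in the upper 50% by signal (1.03, exact p = 0.858).

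Signal and recurrence were not tied in the same way everywhere. All 65789 regions were split into 3 classes of equal size by signal. In the weakest class, 41.4% of those 1 to 5 kb out (39.9 to 42.9) were in replicate 1's list, against 25.2% of those beyond 5 kb (24.4 to 25.9), and 27.1% against 14.7% in replicate 2's. Within that class, regions at genes with a promoter region recurred more often than those at genes without. The shares were 43.5% against 32.8% in replicate 1 and 28.9% against 19.6% in replicate 2. Over regions of all signals 1 to 5 kb out the order was the opposite. There, 58.3% at genes with a promoter region and 63.1% at genes without were in replicate 1's list (Fisher's exact test, adjusted p = 0.000216). In replicate 2's list the shares were 44.7% and 49.1% (exact adjusted p = 0.0008). In the strongest class the shares were close, 96.7% for the regions 1 to 5 kb out and 96.1% beyond 5 kb in replicate 1. The list of all regions was itself called from both replicates, so presence in the replicates' own lists is not independent of it. Over the 2913 regions in both lists, the signals had a Spearman rho of 0.901 and a Pearson r of 0.905 on the log2 scale, as a description over regions of 2 libraries. The median was 7.63 in replicate 1 and 8.11 in replicate 2.

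**Figure D3:**
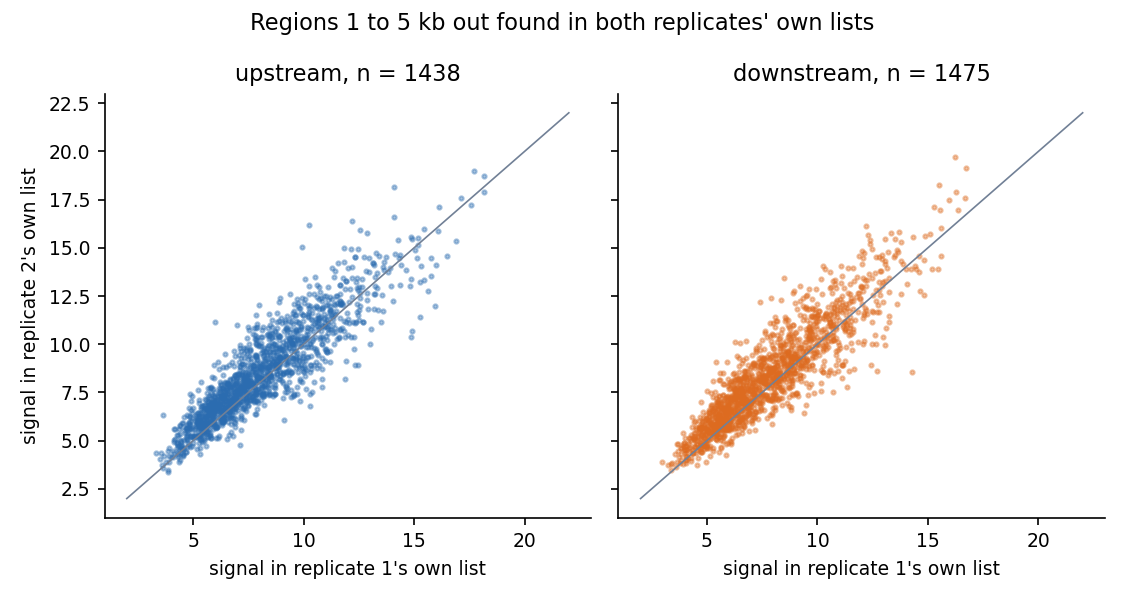
Signal of each region 1 to 5 kb out in replicate 2's own list (vertical axis) against replicate 1's (horizontal axis), for 1438 upstream (left) and 1475 downstream (right) regions found in both; the line marks equal values. Points follow the line on both sides, with Spearman rho of 0.8995 upstream and 0.902 downstream.

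Motif matches separated the regions from promoters far more than from distant regions. The search covered 50 bp on either side of the summit on both strands. CTCF, NFY and REST are given by name, and the other motifs were PU.1 GAGGAAGT, ETS CCGGAAGT, RUNX TGTGGTT, C/EBP TTGCNNAA, GATA with its core AGATAA, AP-1 TGANTCA, NF-E2 GCTGAGTCA, E-box (MYC, USF) CACGTG, E-box (TAL1) CAGATG, KLF CCACACCC, SP GGGGCGGG, NRF1 GCATGCGC, YY1 AANATGGCG, IRF AAANNGAAA, STAT TTCNNNGAA, MEIS TGACAGNT and E2F TTTGGCGC. NF-E2 contains AP-1, so all 74 NF-E2 matches are also among the 325 of AP-1. Of the 7061 regions 49.3% held none of the 20 motifs. Against promoter regions 16 motifs differed, 10 more frequent and 6 less frequent 1 to 5 kb out, and against regions beyond 5 kb 8 differed, 3 more and 5 less frequent (Fisher's exact test with Benjamini-Hochberg adjustment over 20 motifs).

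RUNX, GATA, PU.1 and AP-1 motifs were more frequent in these regions than at promoters and less frequent than beyond 5 kb. RUNX matches were in 7.53% of them, 2.23% of promoter regions and 8.99% of regions beyond 5 kb. GATA matches were in 7.15%, 2.31% and 8.36%, PU.1 in 5.99%, 2.59% and 7.14%, and AP-1 in 4.60%, 2.11% and 5.86%, in the same order. All 4 were below their share beyond 5 kb (odds ratios 0.774 to 0.844; exact adjusted p-values from 0.000150 to 0.00211). C/EBP (5.28%) and the TAL1 E-box (10.1%) were also more frequent than at promoters (3.07% and 4.32%), and against regions beyond 5 kb their exact adjusted p-values were 0.126 and 0.268. The general ETS motif was less frequent than at promoters, 0.524% against 3.82% (odds ratio 0.133, 0.0949 to 0.185). Promoter motifs ran the same way as ETS: SP, bound by SP1 and its relatives, was in 2.19% against 13.5% of promoter regions and 1.08% beyond 5 kb (odds ratio against the latter 2.05, 1.71 to 2.46; exact adjusted p = 9.99e-12). NFY was in 0.878%, 5.40% and 0.568%. By the shares of RUNX, GATA, PU.1, AP-1, SP and NFY the regions stood between promoters and distant regions and nearer to the latter. So they did by the MYC E-box, at 2.66%, 4.41% and 2.17% in the same order. STAT, which also differed from regions beyond 5 kb (exact adjusted p = 0.00455), was nearer to promoters, at 1.74%, 1.68% and 2.34%. Median GC content around the summit was 51.74% in these regions, 63.18% at promoters and 49.75% beyond 5 kb. The motif shares were not adjusted for it, and its part in them was not tested.

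CTCF was the motif that differed between the sides. It was in 309 of 3385 upstream regions (9.13%, 8.18 to 10.2) and 232 of 3676 downstream ones (6.31%, 5.55 to 7.15), a ratio of odds of 1.49 (1.25 to 1.78; adjusted p = 0.000179, exact). The odds ratio was 1.45 at genes with a promoter region (7.90% against 5.58%) and 1.56 at genes without (12.1% against 8.15%). Downstream shares were 3.99% between 1 and 2 kb and 7.58% from 2 to 5 kb, and upstream shares 7.22% and 10.03%. Intergenic regions held CTCF matches in 10.6% upstream (9.35 to 12) and 12.4% downstream (8.56 to 17.3). Introns held them in 6.33% upstream (4.97 to 7.93) and 5.66% downstream (4.9 to 6.5). Within each of these places the intervals of the 2 sides overlapped. Upstream regions were intergenic in 63.4% and downstream ones intronic in 82.7% of cases, and the part of place in the difference between sides was not tested. In the replicates' own lists the odds ratios were 1.34 and 1.25 and did not pass the threshold (exact adjusted p = 0.151 and 0.491), nor did 1.36 with the inner limit at 2 kb (exact adjusted p = 0.0647).

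Regions with a CTCF match were narrow. Their median width was 308 bp, against 449.5 bp with a RUNX and 460 bp with a GATA match, and their median signal was 7.21 against 6.57 and 6.20. Their motifs showed no preferred direction beyond counting error (exact binomial p = 1 upstream and 0.212 downstream). Upstream, 155 of 309 read along the gene (50.16%, 44.45 to 55.87), and downstream 106 of 232 (45.69%, 39.16 to 52.34). KLF (1.62% upstream, 2.37% downstream) and REST (0.414% and 0.136%) had exact p-values of 0.0274 and 0.0359 before adjustment and 0.240 for both after it.

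Promoter status separated 3 motifs. CTCF was in 6.69% of the regions at genes with a promoter region and 10.1% of those at genes without (odds ratio 0.640, 0.533 to 0.767; Fisher's exact test, adjusted p = 4.83e-05). REST, the repressor of neuronal genes, was in 4 of 5037 against 15 of 2024 (0.106, 0.0353 to 0.321; exact adjusted p = 7.82e-05). AP-1, the FOS and JUN motif, was in 5.22% against 3.06% (1.74, 1.32 to 2.31; exact adjusted p = 0.000372). PU.1, RUNX, GATA and C/EBP did not pass the threshold in this comparison. From replicate 2's list alone 1 motif passed, and in the upper 50% by signal none did.

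**Figure D4:**
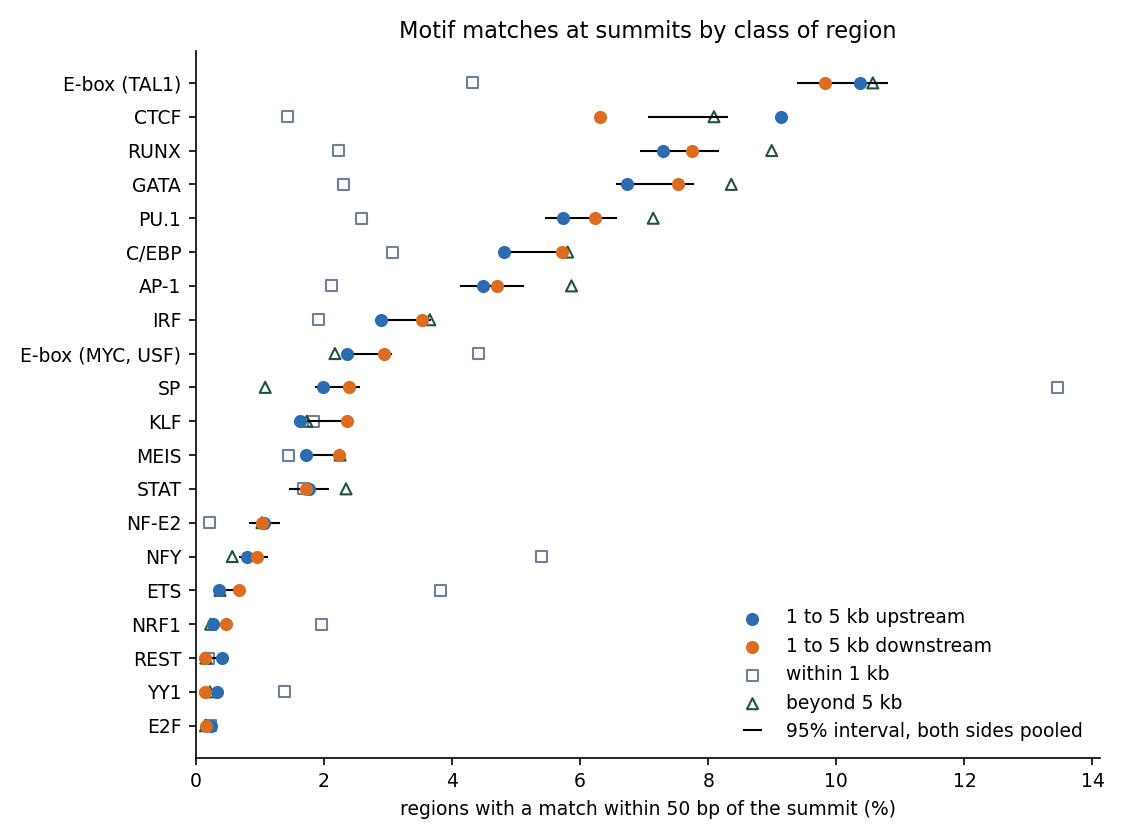
Percent of regions with a motif match within 50 bp of the summit (horizontal axis) for 20 motifs (vertical axis), 1 to 5 kb upstream (blue) and downstream (orange), within 1 kb (grey squares) and beyond 5 kb (green triangles); black bars are Clopper-Pearson 95% intervals of both sides pooled. The blue and orange points are farthest apart for CTCF, 9.13% and 6.31%, and the grey squares stand far to the right for SP at 13.5%.

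Genes of blood cells were mostly above the background of 25.7% of genes with a region 1 to 5 kb out, and so were genes of other tissues. Of 12 lists with 164 matched genes, housekeeping genes stood below it (2 of 11) and T and NK cell genes beside it (3 of 12). Granulocyte and monocyte genes had one in 11 of 16, JAK-STAT signalling genes in 9 of 15, cell cycle genes in 8 of 14, stem and progenitor regulators in 10 of 20, erythroid genes in 7 of 14 and megakaryocyte genes in 6 of 12. Genes of other tissues had one in 7 of 15, mature neutrophil and B cell genes in 5 of 12 each and macrophage genes in 4 of 11. The lists were not tested, and the counts describe them only.

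Among stem and progenitor regulators 19 of 20 had a promoter region, and 19 regions had a median signal of 6.12. Mecom, which encodes the stem cell factor EVI1, had 5, 3 of them above its promoter region by more than a factor of 2: 12.7 at 3964 bp downstream (11.8 and 10.1 in replicates 1 and 2), 11.6 at 1942 bp upstream (10.6 and 10.96) and 10.5 at 1288 bp upstream (9.82 and 8.18), against 4.76. Runx1 had one of 7.86 at 1481 bp upstream (7.57 and 7.10) and one of 6.58 at 3493 bp downstream (6.38 and 6.31), with 4.84 at its promoter. Cd34, the surface sialomucin of progenitors, had one of 7.18 at 4841 bp downstream (6.89 and 6.77) with GATA and E-box matches. Gata2 had no promoter region and one region of 4.78 at 4884 bp downstream (4.47 and 5.07), also with GATA and E-box matches. Tal1 had 6.10 at 3260 bp downstream (5.79 and 5.94). Fli1 had 2 downstream, 5.02 (4.92 and 4.88) and 6.54 (5.95 and 6.73). Kit, Lmo2, Erg, Myb and 6 others of the list had none.

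Granulocyte and monocyte genes held 17 regions with a median signal of 5.74, of which 7 were in replicate 1's list and 4 in replicate 2's. Over all regions 1 to 5 kb out the shares were 59.7% and 45.97%, with a median signal of 6.43. Csf1r, the receptor of macrophage colony-stimulating factor, had one of 9.29 at 2805 bp downstream in its first intron (8.41 and 9.19), against 3.15 at its promoter. Spi1, encoding PU.1, had 3 regions of 3.47 to 7.07, of which the one at 4792 bp downstream was in replicate 1's list (6.92) and none in replicate 2's. Mpo, the myeloperoxidase gene, had one of 5.98 at 3290 bp upstream with a C/EBP match, in replicate 2's list only (6.02). Cebpe had 7.10 at 2661 bp upstream (6.57 and 6.87) with an AP-1 match, against 4.82. Prtn3 and Elane, neighbouring neutrophil protease genes without a promoter region, had upstream regions of 5.86 (5.51 and 5.94) and 4.04 for Prtn3 and 4.06 for Elane. Most regions of this list were seen in at most 1 replicate, as were most of all 7061 regions, of which 41.3% were in both lists.

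Erythroid and megakaryocyte genes held 10 and 7 regions. Rhag stood out with 13.5 at 4283 bp upstream (13.2 and 11.8), against 5.44 at its promoter. Klf1, the erythroid Krüppel-like factor gene, had 8.55 at 1288 bp downstream in a coding exon (7.61 and 8.36), against 5.40, and Tfrc, the transferrin receptor gene, had 8.48 at 4976 bp downstream (7.44 and 8.05), against 13.98. All 7 regions of megakaryocyte genes lay downstream, against 52.06% of all regions 1 to 5 kb out. Itga2b, encoding the platelet integrin αIIb, had 8.09 at 2664 bp (7.49 and 8.39), and Gp1bb had 7.27 at 3804 bp (6.48 and 7.34). Itgb3 had 3.97 and 4.58, both in replicate 1's list only (3.68 and 4.44).

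All 15 JAK-STAT genes had a promoter region, and their 13 regions had a median of 5.43, against 5.98 over all regions at genes with one. Jak2 had 8.02 at 1498 bp downstream (8.31 and 7.23) with a CTCF match. Pim1, a STAT target kinase gene, had 7.44 at 4793 bp downstream (7.17 and 6.49), and Sh2b3, a brake on cytokine signalling, had 3 of 2.85 to 8.31, of which 2 were in replicate 2's list (4.78 and 7.94) and none in replicate 1's. Of 14 cell cycle genes 12 had a promoter region, and the list held 12 outer regions with a median of 4.28. Ccnd1, the cyclin D1 gene, had no promoter region and 3 outer ones, the strongest 7.37 at 2194 bp downstream (6.40 and 8.23). Cdkn1a, encoding p21, had 8.86 at 1765 bp downstream (8.08 and 8.83), against 7.43. Myc had one weak region of 4.45 at 1888 bp upstream (4.32 and 4.75).

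The remaining lists held 4 regions at T and NK cell genes, 5 at B cell genes, 7 each at macrophage and neutrophil genes and 9 at genes of other tissues. Their medians were 10.1 for T and NK cells, 7.68 for B cells, 5.90 for macrophages, 6.56 for neutrophils and 7.15 for other tissues. The median was 6.43 over all regions 1 to 5 kb out, 5.98 at genes with a promoter region and 7.79 at genes without. Each of these lists had regions at genes of both kinds. Bcl11b, a T cell commitment factor gene, had 14.5 at 4488 bp downstream in its first intron (13.3 and 11.2), against 7.74 at its promoter. Lck had 9.85 at 1755 bp upstream (8.78 and 9.04) and 10.3 at 1754 bp downstream (9.10 and 10.2) without a promoter region. Igll1 had 12.3 at 1462 bp upstream (11.2 and 11.7). Cxcl12 had 12.4 at 1528 bp upstream (10.7 and 11.9), and Gfap, an astrocyte filament gene, had 10.8 in a coding exon 4007 bp downstream (9.55 and 10.3). The macrophage list held Ccr2, a monocyte chemokine receptor gene, with 11.2 at 1247 bp downstream (9.91 in both replicates) and Mrc1, the mannose receptor gene, with 10.2 at 4782 bp upstream (7.84 and 10.85), neither with a promoter region. Cdh5, an endothelial cadherin gene, had 10.6 at 2110 bp upstream (10.1 and 9.83), against 12.5. Mmp9, a neutrophil gelatinase gene, had 9.87 at 2332 bp downstream (8.91 and 9.34), and Retnlg had 8.81 at 3779 bp upstream (7.46 and 8.93) with a PU.1 match, both without a promoter region. Actb, the housekeeping gene of beta-actin, had one of 2.76 at 2585 bp upstream, in neither replicate's list. Promoter regions stood at 5 of 12 B cell genes, 6 of 12 T and NK cell genes and 5 of 11 macrophage genes, and the part of other cells in these regions was not tested.

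**Figure D5:**
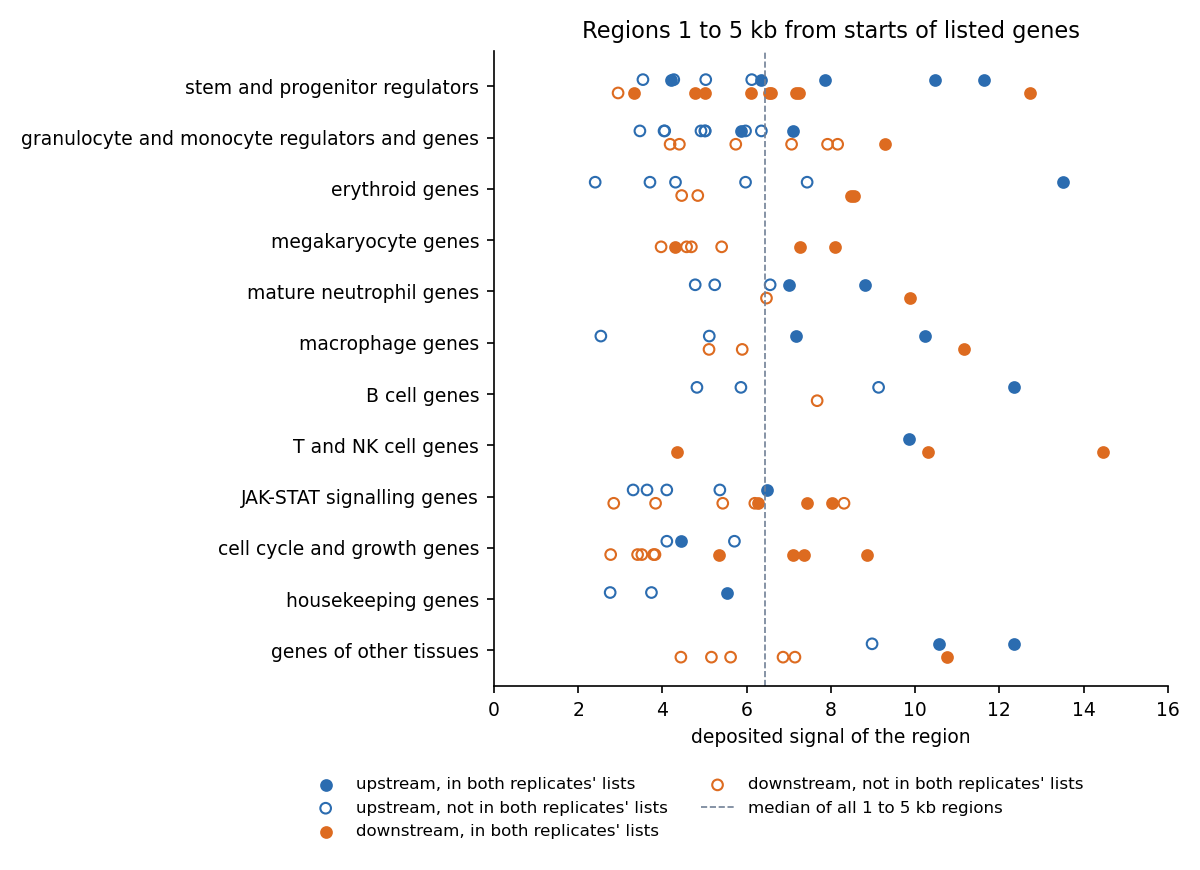
Deposited signal (horizontal axis) of each region 1 to 5 kb from a start of a listed gene, by list (vertical axis), upstream in blue and downstream in orange; filled points were in both replicates' own lists and the dashed line is the median of all 7061 regions, 6.43. Blood cell lists spread on both sides of the median, and the strongest point, at 14.5, belongs to Bcl11b.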

How the data were processed

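The authors deposited called regions of 2 ATAC-seq libraries as lists with a signal value per region, in mm10 per the labels; which aligner and caller were used is not given in the sources used here. The conservative IDR-thresholded list (102186 rows) was used. Sequence was read from the GRCm38.p6 assembly with pysam 0.24.0. Overlapping rows were merged, the strongest summit was kept, and chromosomes X and Y were left out. Summits were set against 52092 starts of 20722 protein-coding genes in GENCODE M21. A gene had a promoter region when a summit lay within 1 kb of any of its starts. Territory was all sequence meeting the distance rule. A region was found in a replicate's own IDR-thresholded list when the regions shared at least 1 bp. Both replicates also entered the conservative list, so these lists are not independent of it. Shares were compared with Fisher's exact test, two-sided, adjusted by the Benjamini-Hochberg method within each comparison, and densities with exact binomial tests, in SciPy 1.17.1 after tests on simulated data. Intervals of shares are Clopper-Pearson, and those of odds ratios are Wald intervals on the log scale.

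Members and lists were chosen with earlier results of these data known. Genes named are list members, the 10 with most regions, the 10 strongest regions per side and without a promoter region, and the 10 exceeding their promoter most; sequences avoid noncoding exon parts. Of 169 list symbols 164 matched an autosomal gene. Results for some items are not reported here.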

Additional observations from a re-analysis of the deposited data

How the results depend on the processing

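Results were recomputed with the series IDR-thresholded list, either replicate's list alone, gene 5′ ends as starts and an inner limit of 2 kb. Further settings were no lncRNA exclusion, no second gene within 5 kb, the upper 50% by signal and a motif window of 100 bp. Other overlap, promoter and start definitions were also used. Of the resulting values 98 kept direction and call or, for counts, stayed within 1.5 times. Of the others, 8 lost the call, 3 gained it, 8 reversed direction and 15 counts moved farther. The upstream to downstream density ratio of 1.004 became 0.8349 with gene 5′ ends, 0.9826 with no second gene, 1.068 at 2 kb and 1.123 in the upper 50%. In the upper 50%, the odds ratio of genes with against without a promoter region turned from 1.689 to 0.5208 for any region, from 1.642 to 0.5421 upstream and from 1.645 to 0.5238 downstream. For presence in replicate 1's list the odds ratio of 1.135 became 1.103 with the series list, 1.067 with gene 5′ ends, 1.119 at 2 kb, 1.033 in the upper 50% and 0.9754 with pseudoreplicated lists; for replicate 2, 1.08 became 0.957 with gene 5′ ends, 1.098 with no lncRNA exclusion and 0.8729 with pseudoreplicated lists. Between the sides 1 motif passed, 2 with gene 5′ ends, and 0 at 2 kb, in the upper 50% and with either replicate alone (range 0 to 0). By promoter status 3 motifs passed, 0 in the upper 50% and 1 to 2 with either replicate alone. Against regions beyond 5 kb 8 motifs passed, 14 with gene 5′ ends, 5 at 2 kb, 4 in the upper 50% and 13 in the wider window. Of the features, 3 differed between sides, 0 at 2 kb and in the upper 50%, and 0 to 1 with either replicate alone. The cause was not tested. Comparisons per Mb, within promoter classes and without CpG-rich regions were chosen after seeing the data. Without counts the depth is unknown, so a region missing from a list may be closed or below its threshold, and 2 libraries of 1 cell type allow no test between samples.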
